A study of Mus musculus with 26 samples.

Results

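Transcripts of 6 chemokine genes, Xcl1, Ccl3, Ccl4, Ccl5, Ccl1 and Ccl9, were followed in leukemia-specific CD8+ T cells of mice. The genes were chosen by name as chemokines that activated CD8+ T cells make, 6 of 35865 genes quantified. No measured value entered the rule, although earlier results of these data were known when the genes were listed.

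The cells were TCRTg101, CD8+ T cells of Tg101 Rag2-/- mice that carry 1 transgenic T cell receptor recognizing C1498, a murine leukemia line. Naive cells labelled with CTV, a dye diluted at each division, were transferred into C57BL/6 hosts of 6 weeks of age, and C1498 cells were injected 1 day later. Control here means cells from spleens of mice without leukemia. The sample labels call 2 of these libraries naive Tg101 at day 0 and 1 Tg101 from untreated mice at day 18. These labels do not say whether the day 0 cells had been transferred. Leukemia-bearing mice gave undivided CTVhi spleen cells at day 18 (1 library), spleen cells at day 7 (early, 2) and day 14 (mid, 1), and liver cells at day 7 (early, 2), days 13 to 14 (mid, 3) and days 16 to 18 (late, 2). All control libraries came from spleen, so that leukemia and tissue cannot be told apart in any comparison of liver with control. Against the 2 day 0 controls, time cannot be told apart from leukemia either. All cells carried the same receptor, and how many mice entered a library is not given in the sources used here. One further day 0 control library, primed with oligo-dT in place of the low-input method, entered no test.

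Chemokines are small secreted proteins that attract cells bearing matching receptors. Xcl1 acts on Xcr1, which cross-presenting dendritic cells carry. Ccl3 and Ccl4 attract T cells and myeloid cells. Ccl3 and Ccl5 bind Ccr1, and Ccl5 in addition Ccr3. Ccl1 is the ligand of Ccr8, a receptor of some regulatory and activated T cells, and Ccl9 is a mouse ligand of Ccr1 that is best known from myeloid cells. Ackr2 is a scavenging receptor that takes up CC chemokines without signalling for migration. Activated CD8+ T cells release Xcl1, Ccl3 and Ccl4 within hours of receptor engagement, and Ccl5 is known as a chemokine of effector and memory cells.

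In GRCm38, Xcl1 lies on chromosome 1 (164931644 to 164935527, minus strand), away from the other members. Ccl5 (83525778 to 83530518), Ccl9 (83572919 to 83578636) and Ccl3 (83647844 to 83649355), all on the minus strand, and Ccl4 (83662584 to 83664683, plus strand) lie together on chromosome 11. Ccl1 lies apart from them on the same chromosome (82176657 to 82305690, minus strand), an interval that is long because of Ccl1-203, a transcript that took 0.101% of the gene's counts. Reads of Xcl1 share sequence with Gm20743, an antisense transcript: 70 of the 493 stretches of 31 bases in Xcl1 (14.2%) also occur in it. Gm20743 was not analysed here, and without stated strand its reads and those of Xcl1 cannot be told apart over that stretch. The share was 3.98% for Ccl9, 0.539% for Ccl5 and 0 for Ccl3, Ccl4 and Ccl1.

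Because most of the members moved together, the bases before the gene starts are shown for the 4 members with an entry in the RefSeq promoter table (GRCm38.p6). Each line gives 200 bases 5′ to 3′ on the gene's own strand, and all 4 genes are on the minus strand. The stretches are chr1:164935528-164935727 for Xcl1, chr11:83649379-83649578 for Ccl3, chr11:82179813-82180012 for Ccl1 and chr11:83578637-83578836 for Ccl9. Capitals mark matches, on either strand, to 6 motifs: TATA box (TATAAA), NFAT core (GGAAAA), kB-like (GGGNNNNNCC), AP-1 (TGANTCA), CRE half-site (TGACG) and RUNX (TGTGGT).
Xcl1: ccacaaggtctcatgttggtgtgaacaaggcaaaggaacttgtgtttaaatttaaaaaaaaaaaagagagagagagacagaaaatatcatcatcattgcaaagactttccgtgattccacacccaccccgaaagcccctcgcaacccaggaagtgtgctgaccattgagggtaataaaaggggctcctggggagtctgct
Ccl3: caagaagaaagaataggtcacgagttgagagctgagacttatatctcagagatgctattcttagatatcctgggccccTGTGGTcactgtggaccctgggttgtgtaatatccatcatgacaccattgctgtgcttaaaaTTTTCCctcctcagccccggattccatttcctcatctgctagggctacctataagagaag
Ccl1: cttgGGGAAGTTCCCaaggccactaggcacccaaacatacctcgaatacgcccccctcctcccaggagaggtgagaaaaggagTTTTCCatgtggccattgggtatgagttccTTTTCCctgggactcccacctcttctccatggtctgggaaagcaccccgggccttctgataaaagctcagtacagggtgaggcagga
Ccl9: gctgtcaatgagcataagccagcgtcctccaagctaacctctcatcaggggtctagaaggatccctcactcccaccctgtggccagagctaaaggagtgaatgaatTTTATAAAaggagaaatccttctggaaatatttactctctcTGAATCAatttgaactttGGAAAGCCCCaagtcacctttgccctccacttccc
The stretch of Ccl1 held 2 NFAT core matches and 2 overlapping kB-like matches in a single run. That of Ccl3 held 1 NFAT core and 1 RUNX match, and that of Ccl9 a TATA box read on both strands, 1 AP-1 and 1 kB-like match. The Xcl1 stretch held none of the 6. Over windows of 300 bases, the same motifs occurred in 23.4% (NFAT core), 50.8% (kB-like), 16.8% (RUNX), 13.6% (TATA box), 7.81% (AP-1) and 20.8% (CRE half-site) of 32851 promoters, so that most of these letters are common. A match describes letters and not a bound site.

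Values are given per library as CPM, the estimated counts of a gene per 1000000 counts assigned to genes. Low-input depth ran from 22918996 to 71358287 estimated counts per library. CD8+ T cell markers (Cd3, Cd8, Lck, Thy1 and others) summed to between 5304 and 8807 CPM in every low-input library, whereas CD4+ T cell markers summed to at most 10.6. The day 0 controls stood apart from the day 18 control in transcripts of other cells. Macrophage markers summed to 1410 CPM in control 1, 185 in control 2 and 13.0 in control 3, and erythroid markers to 5363, 21042 and 149. Fewer cells of a type and less RNA per cell cannot be told apart in these bulk libraries.

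Xcl1 was close to absent in control spleen and among the most abundant transcripts in liver. It stood at 1.15, 0.424 and 2.67 CPM in the 3 controls, against 1977, 903 and 861 in mid liver and 1293 and 304 in late liver. Every mid and late liver library exceeded every control library by far. The share of all genes that did so was not computed. By TPM, which corrects for length, Xcl1 ranked 16, 33 and 31 among 35865 genes in the mid liver libraries and 35 and 165 in the late ones, but between 8588 and 11556 in the controls. The fitted log2 fold change was 9.85 ± 1.83 (SE) at mid (adjusted p = 0.0220) and 9.02 ± 1.84 at late (adjusted p = 0.0147). By fitted rise from control to mid liver, Xcl1 ranked 12 of the 14600 genes tested. Within the libraries titled TG, 1 against 1, mid liver held 1714-fold more than control, and within those titled XC, 2 against 2, 569-fold more.

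Ccl3 and Ccl4, which are neighbours on chromosome 11, showed the same pattern. Ccl3 was at 3.32, 1.13 and 0.107 CPM in the controls, 508, 179 and 199 in mid liver and 295 and 106 in late liver. Ccl4 was at 8.23, 2.57 and 0.392 CPM in the controls, 1416, 447 and 304 in mid liver and 703 and 108 in late liver. Neither gene's mid or late liver values overlapped those of the controls, and how common this was among all genes was not computed. The log2 fold change of Ccl3 was 7.98 ± 1.63 at mid (adjusted p = 0.0221) and 7.21 ± 1.61 at late (adjusted p = 0.0171). For Ccl4 it was 7.94 ± 1.60 (adjusted p = 0.0220) and 6.59 ± 1.56 (adjusted p = 0.0194). For both genes the highest control was control 1 and the lowest control 3, in the same order as the macrophage markers. Whether those cells gave the control counts was not tested. Within the TG libraries, mid liver exceeded control by 153-fold (Ccl3) and 172-fold (Ccl4), and within the XC libraries by 305-fold and 254-fold.

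**Figure D1:**
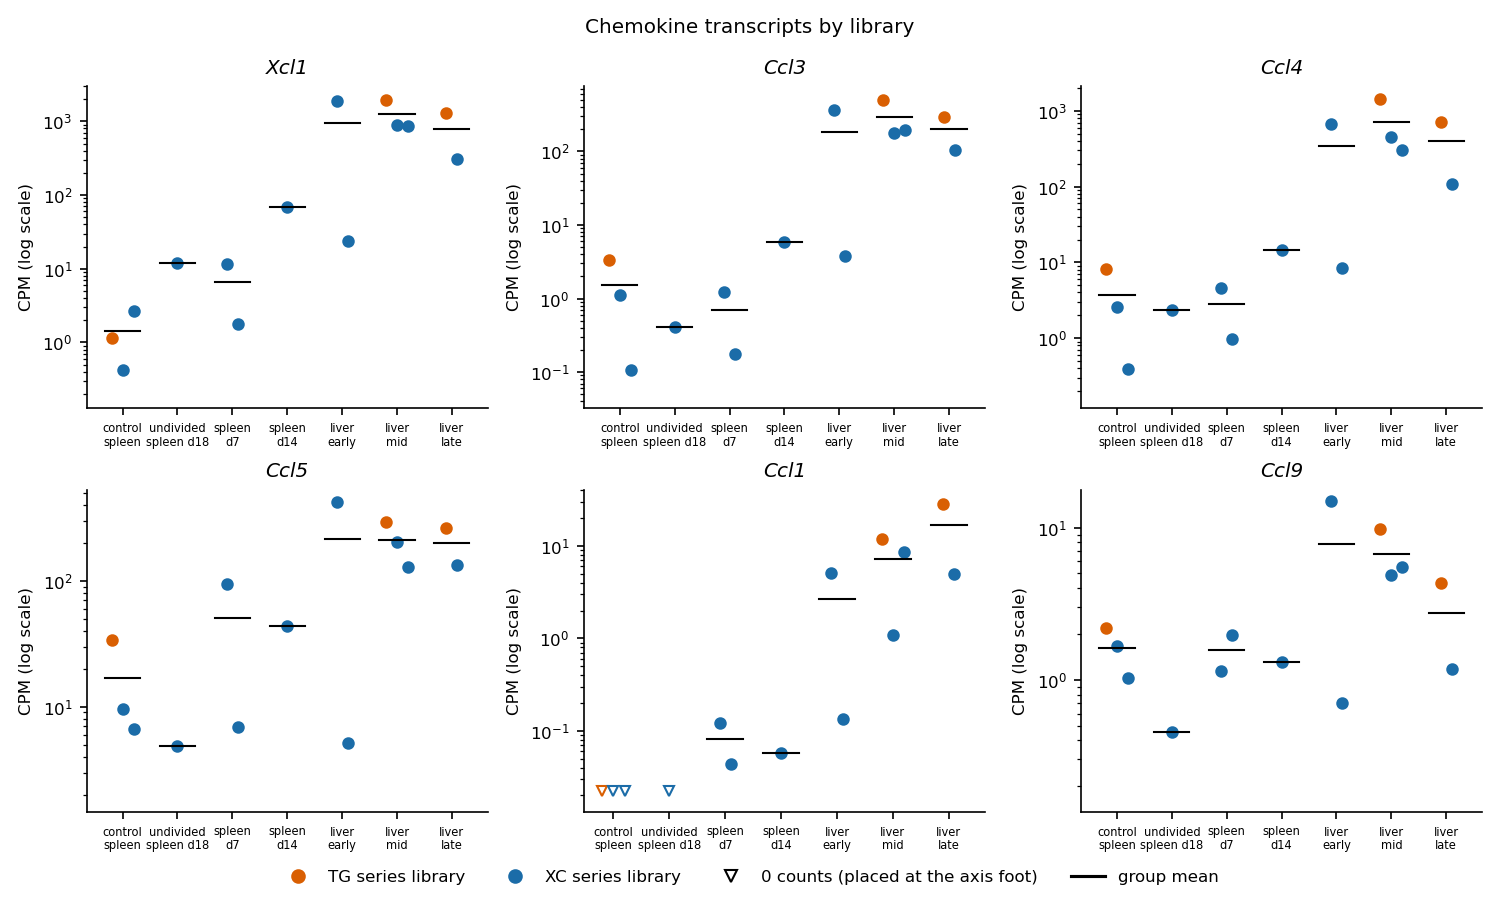
CPM of each chemokine gene (vertical log axis) in every low-input library by group, coloured by the series in the sample title, with a bar at the group mean. Xcl1, Ccl3 and Ccl4 in mid and late liver lie far above all 3 controls, Ccl5 less so, Ccl1 has 0 counts in the controls and the undivided library, and the 2 early liver libraries lie far apart.

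Ccl5 rose less, from a higher start. The controls held 34.1, 9.62 and 6.60 CPM, mid liver 295, 205 and 129, and late liver 265 and 134. The groups did not overlap, but the highest control reached 26.5% of the lowest mid liver value. How many of all genes were separated in this way was not computed. Its log2 fold change was 4.11 ± 1.26 at mid (adjusted p = 0.0444) and 3.88 ± 1.29 at late (adjusted p = 0.0492), just under the threshold of 0.05. Within the TG libraries mid liver exceeded control by 8.66-fold and within the XC libraries by 20.6-fold. Without the series term its adjusted p was 0.0794 at mid and 0.0652 at late.

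Ccl1 had no counts in any control library or in the undivided library. Mid liver held 11.8, 1.10 and 8.68 CPM and late liver 28.6 and 4.93. The CPM that 3 counts would give averaged 0.0712 over the controls. Against this floor per library, mid liver was at least 101-fold higher and late liver at least 235-fold higher. Ccl1 had 10 or more counts in 6 of the 11 libraries fitted, 1 of them outside mid and late liver. It thus entered the fit through the libraries in which it is high, and its values are given as a description. Of its counts over all low-input libraries, 91.9% were assigned to transcript Ccl1-202 and 8.03% to Ccl1-201.

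Ccl9 was low throughout and did not pass the test. The controls held 2.20, 1.66 and 1.03 CPM, mid liver 9.80, 4.90 and 5.50, and late liver 4.33 and 1.19. Mid liver lay above the controls without overlap, with a log2 fold change of 2.18 ± 0.90 (adjusted p = 0.0931, unadjusted 0.0410). For this separation too, the share of all genes was not computed. Late liver overlapped the controls, at 0.68 ± 1.01 (adjusted p = 0.608).

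With mid and late liver pooled in one contrast, 4 of the 5 members other than Ccl1 were higher than control and Ccl9 was not called (log2 1.43 ± 0.84, adjusted p = 0.187). The adjusted p was 0.00790 for Xcl1, 0.00968 for Ccl3, 0.00996 for Ccl4 and 0.0299 for Ccl5. Of all genes tested, 23.5% were called higher in that comparison, 17.3% at mid and 19.8% at late, where the same 4 genes were also called. These comparisons share the control libraries. As a description, the median log2 fold change of the 6 genes with Ccl1 placed at its lower bound was 7.30 at mid and 6.90 at late, and that of all genes was -0.057 and -0.030. Leaving out single libraries ended many of these calls. No member was called at mid, late or both together without control 1, or with the day 18 control alone. In that last setting the log2 fold changes of Xcl1, Ccl3, Ccl4 and Ccl5 at mid were 8.37, 10.86, 9.91 and 4.76, with adjusted p between 0.305 and 0.338, and that of Ccl3 rests on 3 counts in the control. Likewise no member was called at mid without mid 1, mid 3 or control 2, or at late without late 1 or late 2. In those fits few of all genes were called either: at most 1 at mid, 0 at late without a late library, 148 at late without control 1 and 6 with both pooled without control 1. In the 4 fits at mid that lost the calls by leaving out 1 library, the log2 fold change of Xcl1 stayed between 9.21 and 9.88. With the day 18 control alone it was 8.37, as given above. With both pooled, Ccl5 was not called without mid 2, mid 3, late 1, late 2 or any one control. Ccl1 is included where members are counted in the comparisons that follow, except where a count without it is given.

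**Figure D2:**
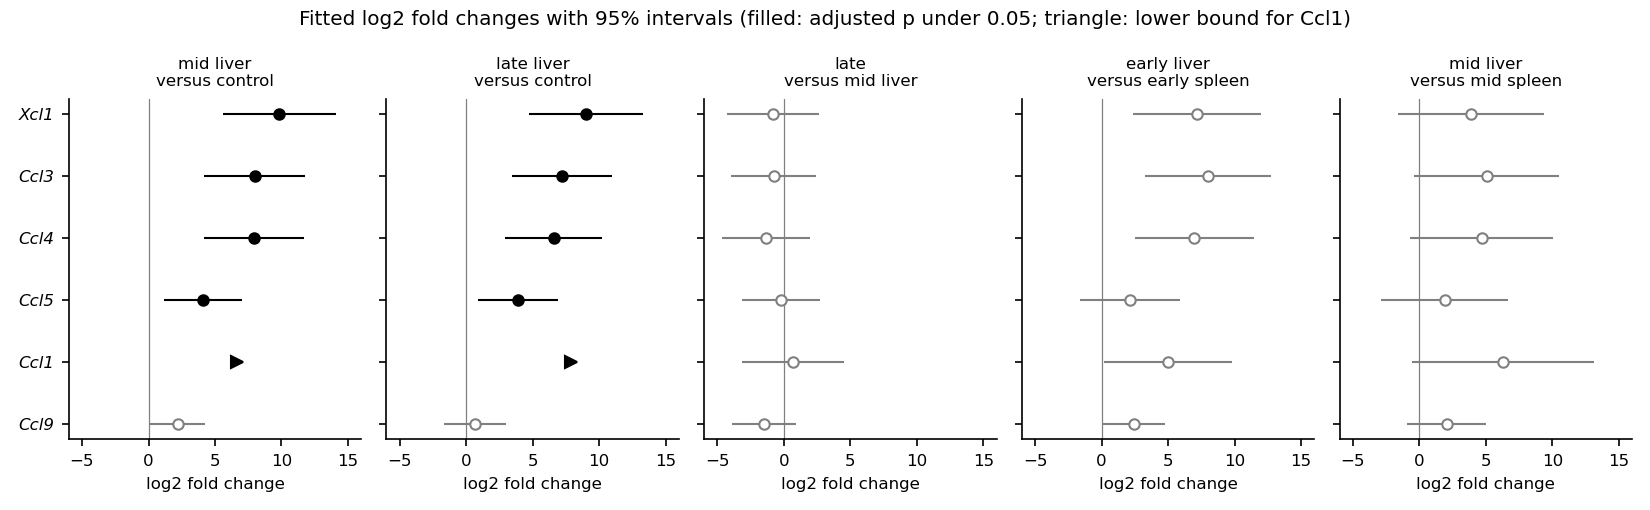
Fitted log2 fold change (horizontal axis) with its 95% interval for each gene in 5 comparisons, filled where the adjusted p is under 0.05, with a triangle at the lower bound of Ccl1 against controls at 0 counts. Against control, Xcl1, Ccl3, Ccl4 and Ccl5 are filled at mid and late, Ccl9 is open, and no gene is filled for late against mid or for liver against spleen.

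In summed CPM, the macrophage and erythroid markers were lower in every mid and late liver library than in both day 0 controls. Control 3 differed. Its macrophage sum, 13.0 CPM, was exceeded in every mid and late liver library except mid liver 2. Its erythroid sum, 149 CPM, was exceeded in mid liver 1 alone, at 175. Of 12 macrophage markers, 8 were tested and 7 fell in mid and late liver against control, when 23.8% of all genes were called lower. Their sum was 10.6 to 36.6 CPM in mid liver and 27.4 to 43.0 in late liver, with 3 to 11 of the 12 markers at 10 or more counts. In mid liver 2, Adgre1, Vsig4, Marco and Timd4 were at 0, while Cd68 stood at 8.63 CPM, above the 2.00 of control 3. All 5 erythroid markers fell. Of 8 hepatocyte markers, 1 or 2 had 10 or more counts in each control and 6 to 8 in each mid and late liver library. Albumin (Alb) was at 0.0154, 0 and 0.0357 CPM in the controls, 70.0, 8.31 and 0.864 in mid liver and 95.2 and 23.2 in late liver. The summed hepatocyte list was nevertheless highest in control 1, at 328, 22.9 and 1.18 CPM in the controls, 190, 23.0 and 3.60 in mid liver and 284 and 84.1 in late liver. In the same order of libraries, Xcl1 stood at 1977, 903 and 861 CPM in mid liver and at 1293 and 304 in late liver. Ccl3 stood at 508, 179 and 199 CPM in mid liver and at 295 and 106 in late liver. Markers of NK cells, which are known to make several of these chemokines, summed to 332, 61.9 and 26.6 CPM in the controls, 523, 184 and 249 in mid liver, 570 and 384 in late liver, and 240 and 19.8 in early liver. Of 5 tested, 2 rose in mid and late liver, Gzma and Cd160, which effector CD8+ T cells also express, 1 fell (Tyrobp) and 2 were not called. Of the receptor genes on the NK list, Klra8 was at 0 in mid liver 1, mid liver 3, late liver 1 and late liver 2. Klra4 was at 0 in mid liver 1 and mid liver 3, and Ncr1 in mid liver 1 and mid liver 2. In control 3, Ncr1 and Klra8 were at 0. Klrb1c was at 0 in none of these libraries. Of the 8 NK markers, those with 10 or more counts numbered 5, 6 and 6 in mid liver and 6 and 5 in late liver. In the controls they numbered 8, 8 and 5. The part of any of these cells in the chemokine values was not tested.

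**Figure D3:**
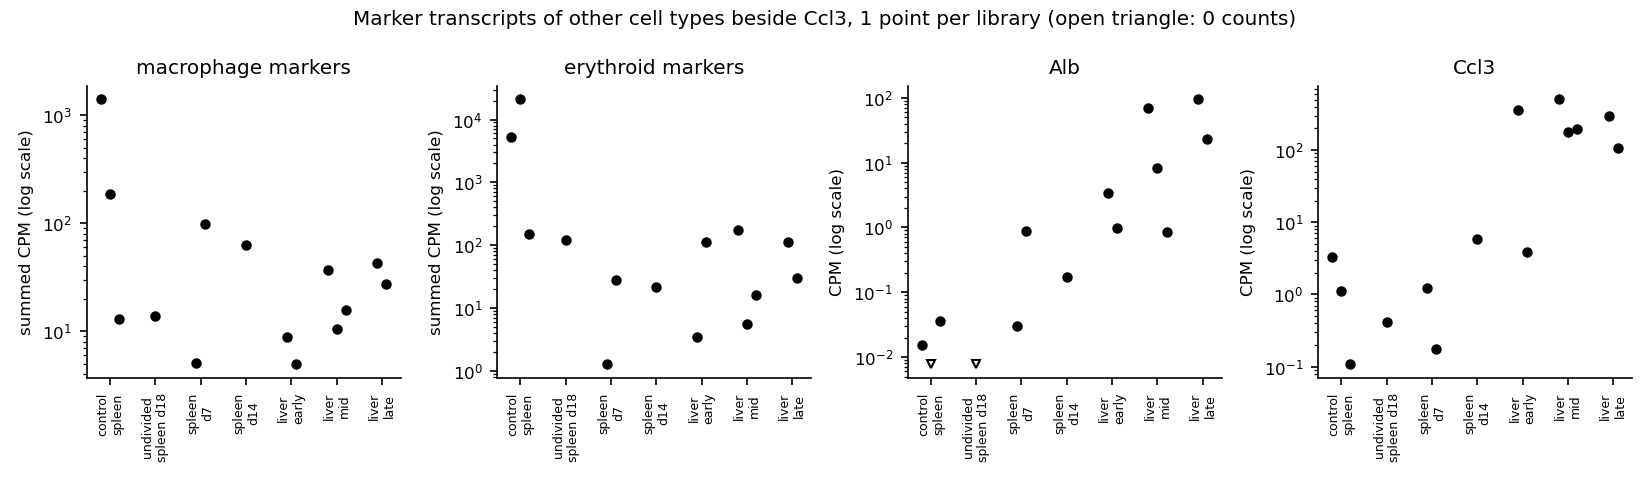
Summed CPM of the macrophage and erythroid markers, CPM of Alb and CPM of Ccl3 (log axes), 1 point per low-input library by group, open triangles standing for 0 counts. The macrophage and erythroid sums are highest in control libraries, at 1410 and 21042 CPM, while Ccl3 and Alb are highest in liver libraries.

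The late liver libraries were not separable from the mid ones. For Xcl1, Ccl3 and Ccl4 the late libraries straddled the mid ones, with late 1 above mid 2 and mid 3 and late 2 below all 3. The fitted log2 fold change, late against mid, was -0.83 ± 1.47 for Xcl1, -0.77 ± 1.37 for Ccl3, -1.35 ± 1.41 for Ccl4, -0.24 ± 1.25 for Ccl5 and 0.67 ± 1.52 for Ccl1, with adjusted p between 0.959 and 0.996. Ccl9 was the one member whose late values both lay below its mid values, at -1.50 ± 1.04 (adjusted p = 0.928). edgeR called no member, none at an unadjusted p under 0.05, and 0% of all genes lower, and DESeq2 called none. The intervals were wide, and for Xcl1 the 95% interval ran from -4.25 to 2.60 on the log2 scale. Each series held few libraries, and the late values within it are given as a share of the mid ones as a description only. In the TG libraries, 1 against 1, late liver held 65.4% of the mid value of Xcl1, 58.0% of Ccl3, 49.7% of Ccl4, 89.6% of Ccl5 and 44.2% of Ccl9. In the XC libraries, 1 against 2, the shares were 34.5%, 56.2%, 28.7%, 80.4% and 22.8%. For Ccl1 the late values were at 243% and 101% of mid.

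The 2 early liver libraries, both from day 7, differed widely. Early liver 1 held 1880 CPM of Xcl1, 365 of Ccl3, 673 of Ccl4, 426 of Ccl5, 5.16 of Ccl1 and 15.0 of Ccl9. Early liver 2 held 23.7, 3.84, 8.41, 5.14, 0.133 and 0.700 CPM. Early liver 1 thus reached the range of mid liver, and exceeded every mid and late library for Ccl5 and Ccl9. Early liver 2 held between 1.05% and 1.26% of the level in early liver 1 for Xcl1, Ccl3, Ccl4 and Ccl5. For Ccl1 it was 2.58%, on 4 counts, and for Ccl9 4.68%. Early liver 2 remained above all controls for Xcl1, Ccl3 and Ccl4, narrowly so for Ccl3 and Ccl4, and below all of them for Ccl5 and Ccl9.

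Early liver against control gave log2 fold changes of 9.77 ± 1.85 for Xcl1, 7.90 ± 1.69 for Ccl3, 7.79 ± 1.65 for Ccl4, 4.50 ± 1.39 for Ccl5 and 2.70 ± 0.99 for Ccl9. None was called by edgeR (adjusted p 0.455 to 0.468), and 0% of all genes were called higher. All 6 genes had an unadjusted p under 0.05, as had 10.2% of all genes. DESeq2 called 4 of the 6, 3 without Ccl1, and 2.4% of all genes. Ccl1 averaged at least 37.2-fold above the control floor. Without early liver 2, edgeR called genes, members among them, from 1 library whose spread is assumed to be that of the other groups. Those calls are not counted here. Without early liver 1, the log2 fold changes fell to 4.51 for Xcl1, 2.26 for Ccl3 and 2.43 for Ccl4, and turned negative for Ccl5 (-0.90) and Ccl9 (-0.78).

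The undivided cells, taken at day 18 from spleens of leukemia-bearing mice, lay within or below the control range for all genes but Xcl1. They held 11.9 CPM of Xcl1, above all 3 controls, and 0.417 of Ccl3, 2.36 of Ccl4, 4.86 of Ccl5 and 0.452 of Ccl9. The values of Ccl5 and Ccl9 lay below every control. No gene was called against control (Xcl1 log2 3.47 ± 1.70, unadjusted p = 0.0781, adjusted p = 1, with 0% of all genes called higher by edgeR), none had an unadjusted p under 0.05, and DESeq2 called none. Late liver exceeded the undivided library for all 6 genes without overlap, and the share of all genes that did so was not computed. Those differences, such as 8.07 ± 2.91 for Ccl3, 5.95 ± 2.53 for Ccl4 and 5.55 ± 2.59 for Xcl1, had adjusted p between 0.152 and 0.414. edgeR called none of them and 0% of all genes higher, and 2 members had an unadjusted p under 0.05, as had 25.9% of all genes. DESeq2 called 3 members, 2 without Ccl1, and 12.9% of all genes.

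In spleens of leukemia-bearing mice the chemokines were mostly low at day 7. The early spleen libraries held 11.6 and 1.76 CPM of Xcl1, 1.24 and 0.176 of Ccl3, 4.58 and 0.970 of Ccl4, 94.8 and 6.88 of Ccl5, and 1.15 and 1.98 of Ccl9. Ccl1 had 5 counts over both. Early spleen 1 was the higher one for all but Ccl9, and for Ccl5 it lay above every control. At day 14 the single mid spleen library held 67.8 CPM of Xcl1, 5.85 of Ccl3, 14.5 of Ccl4, 43.8 of Ccl5, 2 counts of Ccl1 and 1.32 CPM of Ccl9. The first 4 lay above every control.

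No member was called by edgeR or DESeq2 in early spleen or mid spleen against control, with 0% of all genes called higher in each. The nearest was Xcl1 at day 14, at log2 5.99 ± 1.82 (unadjusted p = 0.0111, adjusted p = 0.841), the one member under an unadjusted 0.05 in these comparisons. At day 7 its value was 2.61 ± 1.59 (adjusted p = 0.871). Macrophage markers summed to 5.13 and 98.0 CPM in the early spleen libraries and to 62.7 in mid spleen. The part of macrophages in the chemokine values was not tested.

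By group mean, liver held more of each of the 6 transcripts than spleen of leukemia-bearing mice at both time points. The spread between libraries was too wide for a call. At day 7 the liver libraries disagreed, with a summed TPM of the 6 genes of 6601 and 89.5, against 239 and 19.9 in spleen. At day 7 both liver libraries exceeded both spleen libraries for Xcl1, Ccl3, Ccl4 and Ccl1, and overlapped them for Ccl5 and Ccl9. How large a share of all genes showed such a separation was not computed. The log2 differences were 7.18 ± 2.09 for Xcl1, 8.01 ± 2.06 for Ccl3, 6.97 ± 1.94 for Ccl4, 2.12 ± 1.63 for Ccl5 and 2.46 ± 1.05 for Ccl9 (adjusted p 0.545 to 0.685). edgeR called no member and 0% of all genes higher, and 5 members had an unadjusted p under 0.05, as had 9% of all genes. DESeq2 called 3 members and 0.382% of all genes. Without early liver 2, edgeR called genes, members among them, from 1 early liver library, and those calls are not counted here. Without early liver 1 the differences of Ccl5 and Ccl9 were -3.28 and -1.03.

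At days 13 to 14 all 3 liver libraries exceeded the single spleen library for all 6 genes. The share of all genes that did so was not computed. The log2 differences were 3.89 ± 2.39 for Xcl1, 5.06 ± 2.37 for Ccl3, 4.71 ± 2.33 for Ccl4, 1.92 ± 2.06 for Ccl5 and 2.06 ± 1.33 for Ccl9 (adjusted p 0.711 to 0.769). edgeR called no member, none had an unadjusted p under 0.05, and DESeq2 called none. The share of all genes called higher was 0.00647%, the single gene Gm14681 (log2 12.99 ± 1.12, adjusted p = 0.00427), which is named because it was the only one called.

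Averaged over both time points, liver exceeded spleen by 6.53 ± 1.75 for Ccl3, 5.84 ± 1.68 for Ccl4, 5.64 ± 1.79 for Ccl1, 5.54 ± 1.76 for Xcl1, 2.26 ± 0.87 for Ccl9 and 2.02 ± 1.35 for Ccl5. The adjusted p ran from 0.252 to 0.436, with Gm14681 again the single gene called (0.00647%). At an unadjusted p under 0.05 stood 5 members and 17.6% of all genes. DESeq2 called 5 members, 4 without Ccl1, and 3.69% of all genes. The change of the liver to spleen difference from day 7 to days 13 to 14 was negative for Xcl1 (-3.29 ± 2.42), Ccl3 (-2.94 ± 2.40) and Ccl4 (-2.26 ± 2.28). No member was called for it by edgeR or DESeq2 (adjusted p = 1, none at an unadjusted p under 0.05, 0% of all genes called lower), and without early liver 1 those 3 values turned positive, at 2.03, 2.68 and 3.10.

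The mixture of chemokines also differed between groups. By TPM, Ccl5 led in every control, with 76.2%, 73.1% and 66.4% of the summed TPM of the 6 genes, and in both early spleen libraries, with 84.9% and 69.0%. Xcl1 led in all 7 liver libraries, with 51.8% to 63.7%, in mid spleen with 54.3% and in the undivided library with 63.8%. The sum was 69.8, 25.0 and 20.0 TPM in the controls, 39.3 in the undivided library, 239 and 19.9 in early spleen and 275 in mid spleen. In mid liver it was 6252, 3287 and 2817 TPM, and in late liver 3579 and 1178.

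The early liver libraries shared a mixture despite their levels. Xcl1, Ccl4, Ccl5 and Ccl3 made 61.8%, 16.7%, 13.5% and 7.60% of a sum of 6601 TPM in early liver 1, and 62.9%, 16.9%, 13.1% and 6.45% of 89.5 TPM in early liver 2. Ccl3 made little of the sum in the undivided library (1.40%, on 12 counts) and control 3 (0.707%, on 3 counts). The same held in early spleen (0.729% and 1.19%, on 41 and 4 counts). The TPM ratio of Xcl1 to Ccl3 was 45.5 in the undivided library and 39.8 in control 3. It was 14.9 and 15.8 in early spleen and 18.3 in mid spleen. In the liver libraries it was 4.55 to 9.74, and in the day 0 controls 0.538 and 0.593.

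**Figure D4:**
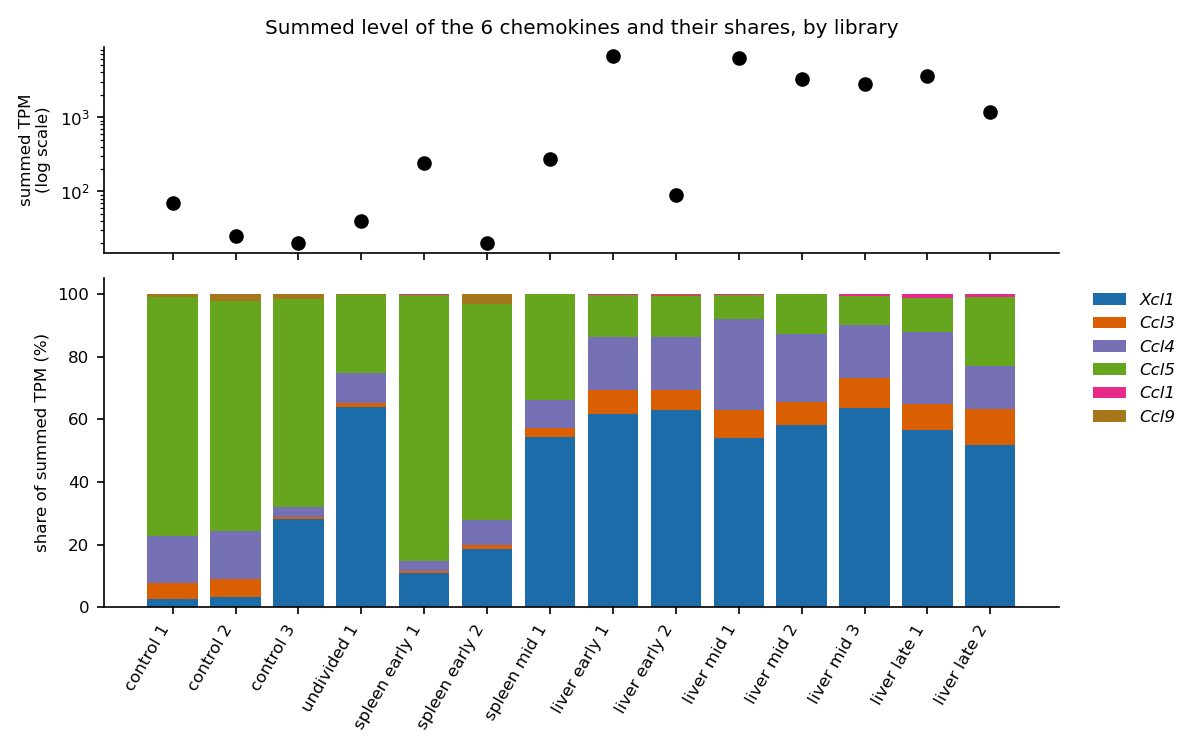
Summed TPM of the 6 chemokine genes on a log axis (top) and the share of each gene in that sum in percent (bottom), for each low-input library. Ccl5 is the largest share in the 3 controls and both early spleen libraries, and Xcl1 in the undivided, mid spleen and all liver libraries, early liver 2 included.

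In mid liver the order by mean TPM was Xcl1 (2361 ± 882, SD, n = 3), Ccl4 (1004 ± 716), Ccl5 (384 ± 112), Ccl3 (353 ± 179), Ccl1 (13.0 ± 9.3) and Ccl9 (3.88 ± 0.64). Ccl5 and Ccl3 differed by less than their SD, while Xcl1 was above Ccl4 and Ccl4 above both in each of the 3 libraries. In late liver the order was Xcl1 (1317 ± 999, n = 2), Ccl4 (494 ± 468), Ccl5 (325 ± 92), Ccl3 (215 ± 114), Ccl1 (26.0 ± 23.1) and Ccl9 (1.40 ± 0.88). Within both late libraries Xcl1 was highest and Ccl5 was above Ccl3. Ccl4 was above Ccl5 in late 1 (825 against 390 TPM) and below it in late 2 (163 against 259 TPM). In controls the order was Ccl5 (28.2 ± 21.7, n = 3), Ccl4 (4.95 ± 4.97), Xcl1 (2.80 ± 2.51), Ccl3 (1.71 ± 1.74) and Ccl9 (0.558 ± 0.224), with Ccl1 at 0, and Ccl4, Xcl1 and Ccl3 were within an SD of each other. Within each control Ccl5 was highest and Ccl4 was above Ccl3, while Xcl1 was above Ccl4 in control 3 alone.

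The outer genes of the cluster on chromosome 11, Ccl5 and Ccl4, span 138906 bases and 6 annotated genes, of which 5 had 10 or more counts in at least 6 of the 14 low-input libraries. Ccl6, a chemokine of myeloid cells that lies between Ccl9 and Ccl3, did not follow its neighbours. It averaged 4.30 TPM in controls, 0.240 in mid liver and 1.35 in late liver, where Ccl3 stood at 1.71, 353 and 215 TPM. In CPM it ran from 0.321 to 11.8 over the controls. Rpl9-ps1, between Ccl6 and Ccl3, had a mean of at most 0.885 TPM in every group.

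**Figure D5:**
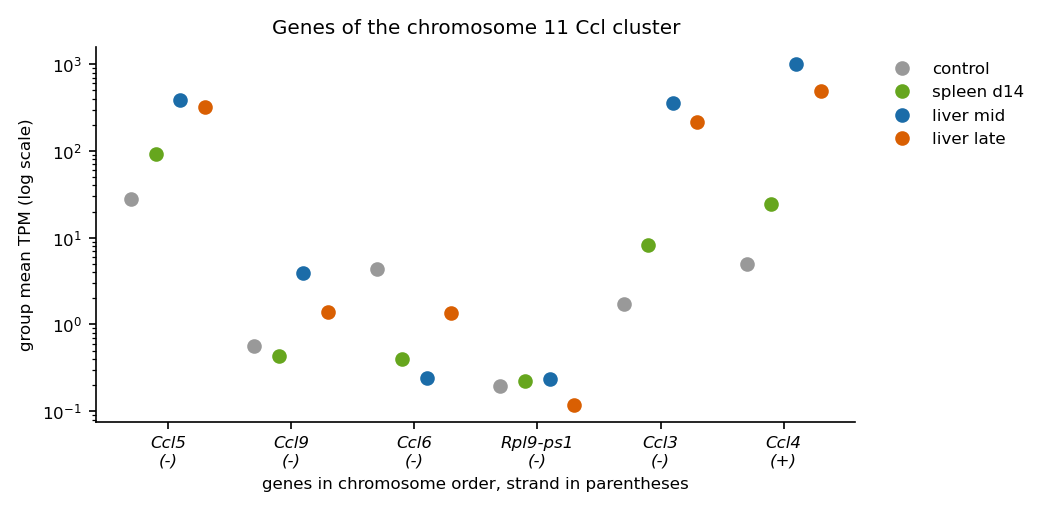
Group mean TPM (vertical log axis) of the 6 genes of the chromosome 11 cluster in chromosome order, for control, mid spleen, mid liver and late liver. Ccl5, Ccl3 and Ccl4 are highest in mid liver, at 384, 353 and 1004 TPM, while Ccl6 is highest in control, at 4.30 TPM.

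Among receptor genes for these chemokines, Ccr8 and Xcr1 went in opposite directions in liver. Ccr8, the receptor of Ccl1, had 1 count over the 3 controls. It was at 5.05, 1.88 and 9.82 CPM in mid liver and 26.3 and 69.8 in late liver, a description only, since Ccr8 passed the count filter through those libraries and early liver 1. Xcr1 fell, from 13.7, 15.2 and 4.21 CPM in controls to 1.74, 3.09 and 4.01 in mid liver and 2.72 and 1.56 in late liver (log2 -1.89 ± 0.47, adjusted p = 0.0131). Its 2 high controls were those with the most macrophage transcripts, and the part of those cells was not tested. Ccr1, Ccr3 and Ackr2 did not pass the count filter, and Ccr3, at 22.9 CPM in its highest control, was at most 0.269 CPM in every mid and late liver library.

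Of 31 other chemokine genes, 5 were tested. Cxcl9 (log2 -3.41 ± 0.70, adjusted p = 0.00787) and Cxcl16 (-2.79 ± 0.52, adjusted p = 0.00678), which antigen-presenting cells are known to make, were lower in mid and late liver, where 23.8% of all genes were, and Ccl25, Ccl27a and Cxcl10 were not called. Cxcl9 was at 2.48, 3.56 and 0.428 CPM in the controls and at most 0.297 in mid and late liver, and Cxcl16 at 10.3, 8.16 and 1.75 CPM in the controls against 0.608, 0.675 and 0.934 in mid liver. For both, the high values were those of the day 0 controls with the most macrophage transcripts. Of 11 genes for transcription factors and RNA-binding proteins that act on chemokine genes, 3 were higher and 2 lower, shares near the 23.5% and 23.8% of all genes. Tbx21, which encodes T-bet, an activator of effector genes, rose by 4.01 ± 0.78 (adjusted p = 0.00830), from between 6.91 and 16.1 CPM in controls to between 145 and 200 in mid liver. Nfatc1, a calcium-responsive factor (1.53 ± 0.26, adjusted p = 0.00638), and the NF-kB gene Nfkb1 (1.06 ± 0.25, adjusted p = 0.0106) also rose. Klf13, a factor known for late Ccl5 transcription in T cells, fell (-1.21 ± 0.26, adjusted p = 0.00842), as did Zfp36, which binds AU-rich messages and favours their decay (-1.43 ± 0.34, adjusted p = 0.0118). Runx3, Nfatc2, Rel, Rela, Zfp36l1 and Zfp36l2 were not called. The medians were -0.48 for the other chemokines and 0.0051 for the regulators, against -0.054 over all genes.

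Across the 14 low-input libraries the members' log2 CPM followed one another, as a description over libraries that share the same liver to control contrast. Pearson's r was highest for Ccl3 with Ccl4 (0.993) and lowest for Xcl1 with Ccl9 (0.709). Among 5882 genes with a mean log2 CPM of at least 5, those most like Xcl1 were Thop1 (r = 0.986), Shmt1 (0.982) and Crtam (0.977). Those most like Ccl3 were Sec61a1, Rrp1 and Odc1 (0.967 to 0.966), and for Ccl4 they were Rcc1, Agpat5 and Morf4l2 (0.967). For Ccl5 they were Rcc1 (0.944), Txndc5 (0.940) and Cxcr3 (0.930), for Ccl1 Prf1 (0.973), Lman2 (0.970) and Nup62 (0.968), and for Ccl9 Tardbp (0.927), Map2k3 (0.920) and Aen (0.919).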

How the data were processed

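The authors sequenced FACS-sorted TCRTg101 (26 runs of 15 libraries, 14 of them low-input). Per the files, they deposited kallisto output, that is, expected counts of each transcript, and TPM, which adjust for length and depth. The kallisto version is not given in the sources used here. Runs whose titles differ by the ending -2 were summed as one library, and over 29 pairs the members' CPM differed by a median of 1.04-fold and at most 1.41-fold. GENCODE vM21 (GRCm38) paired transcripts with genes, and the authors may have used another annotation. It held 98.18% of the transcripts and 98.9% to 99.2% of each run's counts. Gene sums were rounded. CPM carry no TMM factor. Kallisto splits reads among similar transcripts, an error outside the tests.

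The main test was that of edgeR 4.0.16 in R 4.3.3 (robust quasi-likelihood with TMM, two-sided), with terms for the group and for the title series (TG or XC). The study mentions 2 batches, and that the titles mark them is an assumption. A gene needed 10 counts in 6 libraries. Contrasts of liver, undivided and control cells used 11 libraries (14600 genes), and those with leukemia-bearing spleen all 14 (15449 genes). P-values were adjusted by Benjamini-Hochberg over all genes, with a threshold of 0.05. The code was tested on simulated data. No label says that libraries came from separate mice, so p-values measure only the spread between libraries, which may be technical. A group of 1 library was assumed to vary like the others. Counting error is large where counts are few, as for Ccl1 outside liver (0 to 4 counts a library), Ccl3 in control 3 (3 counts) and early spleen 2 (4) and Ccl4 in control 3 (11), and the 1 to 3 libraries per group limit precision.

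Alternatives were RLE factors, no count filter, no series term, DESeq2 1.42.0, the first run of each library, all 14 libraries, the day 0 controls, each library left out and, chosen after seeing the data, the day 18 control alone. Log2 CPM for correlations used a prior count of 2. The named genes were the 6 members, at most 5 called genes each of 3 lists (receptors, other chemokines, regulators), the genes of the chromosome 11 cluster and the 3 genes most like each member. Members and lists were chosen with earlier results of these data known. Some values of the lists are not reported here. Python 3.11.15, numpy 2.4.6, pandas 2.3.3 and matplotlib 3.10.9 made the tables and plots.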

Additional observations from a re-analysis of the deposited data

How the results depend on the processing

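No paired analysis was possible because the labels give no replicate numbers shared between groups. Against control, all log2 fold changes of the 6 genes at mid (81 values), late (76) and both together (91) kept their direction under every alternative that gave a value. Of all genes, 31.3% were called at mid, 37.5% at late and 47.3% at both. Without Ccl1, which entered the fit through the liver libraries, 4 members were called in each. With Ccl1 counted, as in what follows, 5 of the 6 genes were called at mid, late and both. At mid this became 3 with the day 0 controls only and 0 with the day 18 control only. At late and at both together it became 0 with the day 18 control only. Leaving out 1 library gave 0 to 3 at mid (0 without mid 1, mid 3, control 1 or control 2, and 3 without mid 2 or control 3), 0 to 4 at late (0 without late 1, late 2 or control 1) and 0 to 4 at both together (0 without control 1, and 3 without mid 2, mid 3, late 1 or late 2). At mid without mid 2 or control 3, 21.9% and 16.4% of all genes were called. At late without control 2 or control 3, 3 members other than Ccl1 were called, with 23.8% and 28.9% of all genes. With both pooled, 42.7% and 35.7% of all genes were called without mid 2 or mid 3. DESeq2 called 6 members at mid, 5 without Ccl1, and 37.3% of all genes. Ccl5 was called in 4 of 14 alternatives at mid and 3 of 13 at late, with an adjusted p of 0.0666 and 0.0766 with all 14 libraries, 0.0532 at late with the first run of each library and 0.118 at late with the day 0 controls only. Ccl1 fell under the count filter without any single mid or late library, or without early liver 1, and then had no value.

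Where no member was called, the count became, without the count filter, 1 for late against mid liver, 6 for early liver against control, 1 for undivided against control, 5 for late liver against undivided, 6 for early liver against early spleen, 5 for mid liver against mid spleen, 6 for liver against spleen averaged, 3 for its change with time, 3 for early spleen against control and 4 for mid spleen against control. These counts are over all 6 genes, Ccl1 included. Shares of all genes called in either direction were, in the same order, 1.47%, 5.02%, 1.11%, 8.51%, 3%, 2.31%, 6.7%, 0.253%, 1.96% and 1.92%. In the fit without the count filter, on 29509 or 32785 genes, the prior degrees of freedom of edgeR were infinite, against 3.90 in the 11 library fit. With DESeq2 the count became 4 for early liver against control, 3 for late liver against undivided, 3 for early liver against early spleen and 5 for liver against spleen averaged. Without Ccl1 the DESeq2 counts were 3, 2, 3 and 4 in the same order. DESeq2 called 2.4%, 12.9%, 0.382% and 3.69% of all genes there. Without early liver 2, edgeR called members among other genes against control, against early spleen and averaged. Those calls rest on 1 early liver library and are not counted here. When any other library was left out, edgeR called no member in these comparisons.

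Values that changed sign, all without a call, were as follows on the log2 scale. Without the series term, Ccl5 in late against mid liver was 0.096, Ccl4 in undivided against control -0.71 and Ccl1 there 0 (also 0 with DESeq2), Ccl5 and Ccl9 in the change of liver against spleen with time 0.39 and 0.15, Ccl4 and Ccl9 in early spleen against control -0.52 and -0.22, and Ccl9 in mid spleen against control -0.33. With the first run of each library, Ccl9 in that change with time was 0.019, Ccl3 in early spleen against control 0.33 and Ccl9 in mid spleen against control -0.15. With the day 18 control only, Ccl3 was 1.97 in undivided and 2.75 in early spleen against control. Leaving out 1 library gave ranges of -0.49 to 0.032 for Ccl5 in late against mid liver, -0.90 to 5.48 for Ccl5 and -0.78 to 3.63 for Ccl9 in early liver against control, -3.28 to 5.16 and -1.03 to 3.38 for the same genes in early liver against early spleen, and -0.68 to 3.54 for Ccl5 in liver against spleen averaged. For the change with time the ranges were -5.37 to 2.03 (Xcl1), -5.13 to 2.68 (Ccl3), -3.93 to 3.10 (Ccl4), -3.25 to 5.20 (Ccl5) and -1.33 to 3.09 (Ccl9), with the positive end without early liver 1. For early spleen against control they were -2.28 to 0.66 (Ccl3), -0.84 to 1.77 (Ccl4), -0.65 to 3.30 (Ccl5) and -0.093 to 0.67 (Ccl9), and for mid spleen against control -0.033 to 0.56 (Ccl9). The causes were not tested. Depth limits Ccl1 outside liver (0 to 4 counts per library) and Ccl3 in control 3 (3 counts), on which its fold against the day 18 control rests.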

Other observations

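The oligo-dT library of day 0 control cells, which entered no comparison, held 1.26 CPM of Xcl1, 1.96 of Ccl3, 2.91 of Ccl4, 22.6 of Ccl5, 0.826 of Ccl9 and 0 counts of Ccl1. For Xcl1, Ccl3, Ccl4 and Ccl5 these lay within the range of the 3 low-input controls, and for Ccl9 below it. Ccl5 led its mixture with 81.3% of the summed TPM, and its macrophage markers summed to 954 CPM, between those of control 1 and control 2.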
